A study of Homo sapiens with 32 samples.

Results

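WT MCF10A cells treated with TGFβ1 for 24 h were compared with WT cells given solvent, by RNA sequencing. MCF10A is an immortalised, non-tumorigenic human mammary epithelial cell line. The comparison used 8 of the 32 libraries of the series, 4 on each side, chosen by their labels for genotype, treatment and time. The TGFβ1-treated libraries came from cells given 5 ng/ml TGFβ1 for 24 h, and the solvent libraries are labelled 0 h and, per the study's methods, received 0.1% BSA in PBS for 72 h. All plates were harvested at the same time after seeding. The cells were clones 27 and 2, each grown from 1 sorted cell that had been exposed to CRISPR/Cas9 reagents against JUNB and kept the unedited gene. Each clone was treated in 2 replications, so a solvent and a 24 h library share each of 4 series, written 2-1, 2-2, 27-1 and 27-2. The change thus rests on 2 clones and their replications of 1 cell line. Its p-values measure it against a spread shared by all 8 groups of the series, which include JUNB-edited clones.

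TGFβ1 binds a pair of receptor kinases that phosphorylate SMAD2 and SMAD3. These join SMAD4, enter the nucleus and, often together with activator protein 1 (AP-1), activate genes of the extracellular matrix and of the signal's own inhibitors. In mammary epithelial cells the cytokine is known to halt proliferation and to induce an epithelial-mesenchymal transition (EMT), in which junctions are loosened and matrix, proteases and contractile proteins are made.

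Library totals ranged from 39702412 to 54651906 counts, and levels are given in counts per 1e6 counts of a library (CPM). The 10 most abundant genes took 4.44 to 4.86% of the counts in solvent and 7.21 to 8.06% at 24 h. The series 27-2 lay farthest from its group, with a root mean square log2 deviation of 0.225 in solvent and 0.210 at 24 h, against 0.125 to 0.179 in the other libraries. Without the solvent and 24 h libraries of this series, 1 of 179 genes named with a 24 h value changed its call. This was POSTN, which is given with and without them. JUNB, the gene aimed at in the series, was at 117, 90.05, 89.7 and 93.996 CPM in solvent and 249, 277, 297 and 261 CPM at 24 h, so it was read in every WT library. The basal marker list fitted the labelled cell type by level, since KRT5, KRT14, KRT17 and TP63 were all read in each library and the 13 markers summed to 21552, 18882, 19899 and 21476 CPM in solvent. Tested markers of hormone-sensing luminal cells summed to 398, 406, 430 and 413 CPM in solvent. Of these, KRT18 reached 160 CPM and KRT8 126 CPM, above TP63 at up to 107 CPM, whereas ESR1 reached 1.22 CPM. Among the markers of blood, PTPRC and CD3E held at most 2 counts in any of the 8 libraries, whereas CD68 held 424 to 1131 and CD14 108 to 829 counts. Among those of endothelium, CLDN5 held at most 2 and VWF at most 6 counts, whereas KDR held 152 to 599. The part of other cells in these results was not tested.

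In the 24 h libraries, 7752 of 14865 tested genes (52.1%) had a limma-voom adjusted p-value under 0.05 and are called differentially expressed genes (DEGs). Of all tested genes, 14.1% rose (2098) and 38% fell (5654). These shares are the background for every count of list members given here. The lists and their members were chosen with earlier results of these data known. Changes are log2 fold changes of 24 h against solvent with their standard error (SE), scaled by library size. With trimmed mean of M-values (TMM) factors, 3499 genes rose (23.5%) and 3450 fell (23.2%). The median change of all genes was -0.18 by library size and 0.0014 with TMM factors, a shift of 0.18, so a list median near -0.18 is that of the average gene. Without the solvent and 24 h libraries of series 27-2, 1887 genes rose and 5224 fell. The main fit left out the pairing by series, and with the series fitted as a replicate block 2558 rose (17.2%) and 6344 fell (42.7%). With a change of at least 1 in size as well, 624 genes rose (4.2%) and 821 fell (5.52%). The 4 libraries at 24 h did not overlap the 4 in solvent for 6682 genes (45%). In libraries of whole cultures, fewer cells of a type and less RNA per cell cannot be told apart.

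**Figure D1:**
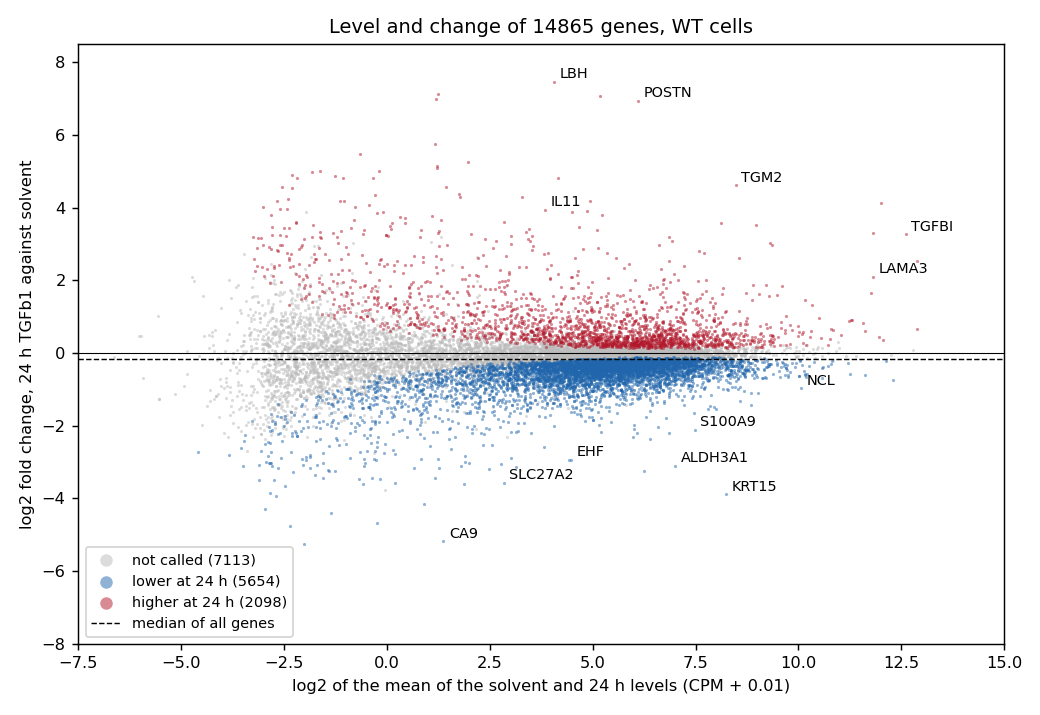
Log2 fold change of 24 h TGFβ1 against solvent (y axis) plotted against the log2 mean level (x axis, CPM with 0.01 added) for 14865 genes. Red points are the 2098 genes that rose, blue points the 5654 that fell, and the dashed line is the median of all genes at -0.18.

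The 12 genes that rose most were ranked among called genes of at least 10 CPM with no overlap between groups and the same sign in the 4 series. Of these 12 genes, 10 are described here, and their lack of overlap was a condition of the ranking. LBH, a transcription cofactor of developing limb and heart, was at 0.180, 0, 0.713 and 0.552 CPM in solvent and 29.9, 25.1, 37.02 and 39.8 CPM at 24 h. All 4 treated libraries lay above all solvent libraries, which held close to no reads, and the change was 7.46 ± 0.94 (adjusted p = 1.65e-07). KANK4, an ankyrin repeat protein of the family that links focal adhesions to the cytoskeleton, was at 0.856, 0.202, 0.881 and 0.401 CPM in solvent and 75.4, 80.7, 68.3 and 60.4 CPM at 24 h. It rose by 7.07 ± 0.83 without overlap (adjusted p = 4.95e-08).

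TGM2, the tissue transglutaminase that crosslinks matrix proteins (ENSG00000198959, chromosome 20, 38127385 to 38166578), was at 27.2, 14.7, 39.9 and 34.97 CPM in solvent and 665, 648, 636 and 772 CPM at 24 h. Its treated libraries stood far above the solvent libraries and close to each other, and the change of 4.62 ± 0.25 had the lowest adjusted p of the 12 genes, 3.83e-13. MMP9, a gelatinase, was at 5.00, 1.36, 4.57 and 4.74 CPM in solvent and 54.6, 49.9, 49.4 and 61.5 CPM at 24 h and rose by 3.91 ± 0.38. MFAP2, a glycoprotein of elastic microfibrils, was at 1.82, 1.16, 0.545 and 0.552 CPM in solvent and 20.1, 23.96, 14.8 and 14.8 CPM at 24 h and rose by 4.30 ± 0.68. Both had no overlap between groups, as the ranking required.

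IL11, a cytokine of the IL6 family, was at 2.21, 1.21, 1.09 and 2.78 CPM in solvent and 23.1, 30.6, 19.7 and 33.2 CPM at 24 h, a rise of 3.95 ± 0.50. SEMA7A, a membrane-anchored semaphorin that binds integrins, was at 3.90, 1.59, 6.40 and 12.8 CPM in solvent and 60.3, 56.1, 62.5 and 94.1 CPM at 24 h, a rise of 3.80 ± 0.39. The solvent library of series 27-2 was the highest for both genes. SCG5, the chaperone 7B2 of prohormone convertase 2, rose by 4.19 ± 0.56, and NEDD9, a focal adhesion scaffold, rose by 3.88 ± 0.46. Neither overlapped between groups, as the ranking required.

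POSTN, the matricellular protein periostin, was at 0.495, 0.0504, 0.587 and 19.5 CPM in solvent and 86.7, 63.7, 41.7 and 337 CPM at 24 h. The series 27-2 was the highest in both groups, at 19.5 CPM in solvent where the other 3 libraries held under 1 CPM. The groups did not overlap and the change was 6.93 ± 2.31 (adjusted p = 0.0130). Without the solvent and 24 h libraries of series 27-2 the change was 7.76 with an adjusted p of 0.0678. The gene was then not called, although its level rose in every series. The 27-2 solvent library was also the highest solvent library for 165 of the 267 genes of at least 10 CPM that rose by 1 or more without overlap, and the lowest for 143 of the 332 such genes that fell.

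**Figure D2:**
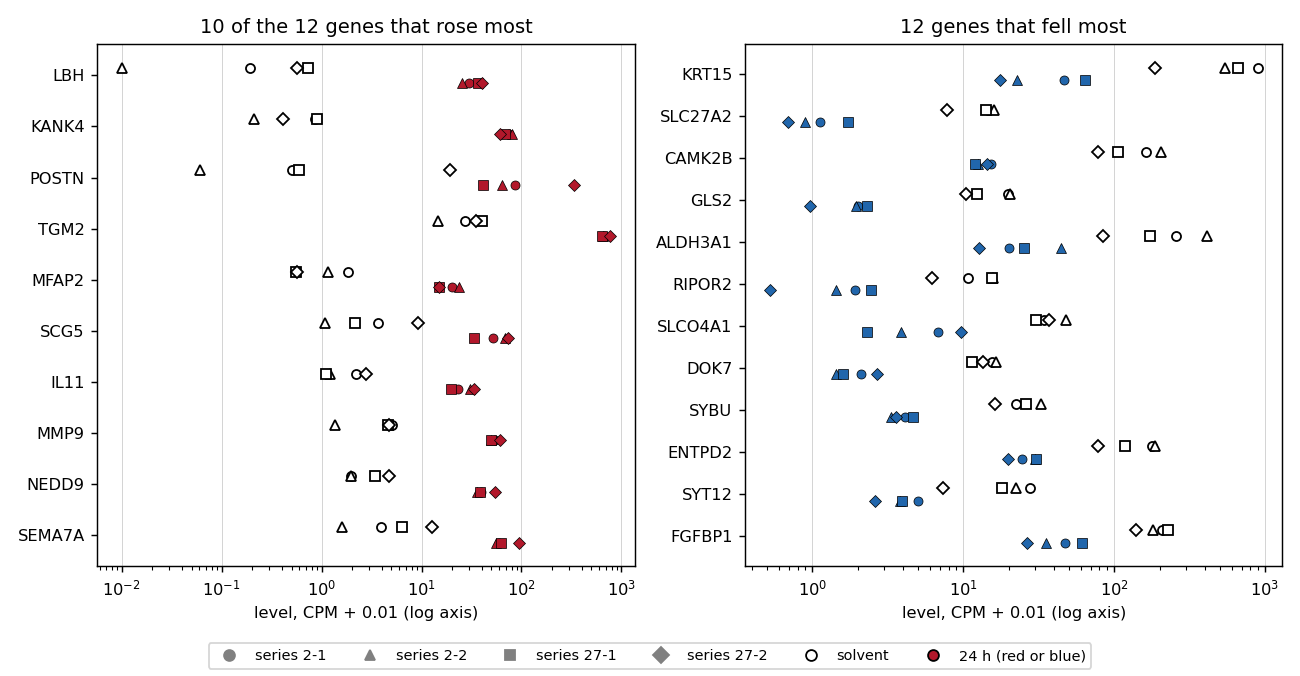
Level in each of the 8 libraries (x axis, CPM with 0.01 added, log axis) of 10 of the 12 genes that rose most (left) and the 12 that fell most (right). Open symbols are solvent libraries, filled symbols 24 h libraries, and the symbol shape gives the series. Only genes whose open and filled symbols do not overlap were ranked. POSTN in the solvent library 27-2 stands at 19.5 CPM.

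The 12 genes that fell most were ranked under the same conditions, so genes whose groups overlap, such as EHF, were left out. Among these 12, KRT15, a keratin of basal epithelial cells (ENSG00000171346, chromosome 17, 41513745 to 41522529), was at 898, 542, 658 and 188 CPM in solvent and 46.3, 22.6, 64.3 and 17.6 CPM at 24 h. Its highest treated library lay below its lowest solvent library, that of 27-2, and the change was -3.89 ± 0.55 (adjusted p = 9.89e-07). ALDH3A1, an aldehyde dehydrogenase of surface epithelia, was at 256, 410.5, 174 and 84.9 CPM in solvent and 20.02, 44.8, 25.3 and 12.8 CPM at 24 h and changed by -3.11 ± 0.42 (adjusted p = 3.99e-07). SLC27A2, a fatty acid transporter and acyl-CoA synthetase, was at 14.7, 15.9, 14.1 and 7.75 CPM in solvent and 1.11, 0.890, 1.72 and 0.681 CPM at 24 h and changed by -3.57 ± 0.47. In all 3 genes the groups did not overlap, as the ranking required.

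GLS2, the liver-type glutaminase, was at 19.9, 20.5, 12.4 and 10.5 CPM in solvent and 1.99, 1.92, 2.31 and 0.958 CPM at 24 h and changed by -3.13 ± 0.32. CAMK2B, a subunit of a calcium-dependent kinase, was at 162, 203, 106 and 77.8 CPM in solvent and 15.3, 12.5, 12.003 and 14.3 CPM at 24 h and changed by -3.26 ± 0.36. The 12 also held RIPOR2 (-3.04), a regulator of cell polarity and migration, SLCO4A1 (-2.93), an organic anion transporter, DOK7 (-2.88), an adaptor of a receptor kinase, and SYBU (-2.60), a kinesin adaptor. ENTPD2 (-2.36), which splits extracellular nucleotides, SYT12 (-2.21), a synaptotagmin, and FGFBP1 (-2.19), a carrier that releases fibroblast growth factors from matrix, completed the group. Adjusted p-values of the 12 were at most 6.06e-05. TGM2, CAMK2B, SLC27A2, GLS2 and SLCO4A1 overlap a gene on the other strand, and since the library kit keeps no strand, reads from the shared stretch could belong to either gene.

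Among the parts of the TGFβ pathway, inhibitors and target genes rose, whereas the receptors and SMADs moved in both directions. Of 14 tested feedback inhibitors, 10 rose and 2 fell, with a median of 0.78. PMEPA1, a membrane protein that sequesters receptor-activated SMADs, was at 72.3, 48.4, 80.9 and 135 CPM in solvent and 866, 974, 869 and 928 CPM at 24 h and rose by 3.53 ± 0.25. SKIL, the SMAD corepressor SnoN, was at 29.03, 26.6, 35.8 and 47.5 CPM in solvent and 177, 169, 175 and 150.4 CPM at 24 h and rose by 2.31 ± 0.18. SMAD7, the inhibitory SMAD, was at 10.9, 11.3, 11.2 and 14.4 CPM in solvent and 32.97, 33.4, 32.1 and 35.8 CPM at 24 h and rose by 1.50 ± 0.10. In each of these genes the treated libraries lay above all solvent libraries. The ubiquitin ligases SMURF2 (1.11) and SMURF1 (0.87) rose as well, and NEDD4L (-0.75), another ligase of the pathway, and TGIF2 (-0.73), a corepressor, fell.

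Of 14 receptors and SMADs, 3 rose and 4 fell, with a median of -0.10. The type I receptor TGFBR1 rose by 0.89 ± 0.11, from 40.2, 45.7, 47.8 and 45.8 CPM to 93.4, 78.6, 78.4 and 82.7 CPM. The co-receptor TGFBR3 (betaglycan) was at 30.2, 43.1, 34.2 and 25.8 CPM in solvent and 11.8, 12.9, 10.9 and 8.07 CPM at 24 h and fell by 1.61 ± 0.18 (SE). SMAD2 (-0.11), SMAD3 (0.12), SMAD4 (-0.10) and the type II receptor TGFBR2 (-0.10) did not pass the test. SMAD2 was called without the 24 h library 2-1 (adjusted p = 0.0306) and SMAD4 without the solvent library 2-1 (adjusted p = 0.0476). The receptors ACVR1 (0.76) and BMPR2 (0.89) rose, while the bone morphogenetic protein SMADs SMAD1 (-0.52), SMAD5 (-0.32) and SMAD9 (-0.72) fell; with TMM factors SMAD5 was not called.

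Of 14 ligands and latency genes, 9 rose and 1 fell (median 0.67). TGFB1 itself was at 93.2, 88.7, 78.5 and 100.1 CPM in solvent and 138, 146, 122 and 178 CPM at 24 h and rose by 0.69 ± 0.10. LTBP2, a microfibril-associated member of the latent TGFβ binding protein family, rose by 1.61 ± 0.18. THBS1, an activator of latent TGFβ, rose by 1.47 ± 0.31, and the activin antagonist FSTL3 by 1.77 ± 0.15. TGFB3 changed by -0.54 and was called by library size but not with TMM factors (adjusted p = 0.118), without the 24 h library 27-1 (0.0598) or without the solvent library 2-1 (0.0813).

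Of 18 tested direct targets known from other cells, 16 rose and 0 fell, with a median of 1.86. This list too was chosen with earlier results of these data known. TGFBI, a matrix protein named for its induction, was at 1091, 918, 1164 and 1641 CPM in solvent and 10851, 11219, 10865 and 12334 CPM at 24 h and rose by 3.26 ± 0.24 (adjusted p = 2.63e-11). ITGB6, the integrin subunit that activates latent TGFβ on epithelia, was at 132, 88.6, 161 and 193 CPM in solvent and 1109, 1183, 1289.7 and 948 CPM at 24 h and rose by 3.03 ± 0.22 (adjusted p = 1.99e-11). SPHK1, which makes sphingosine 1-phosphate, was at 21.1, 14.6, 17.97 and 19.4 CPM in solvent and 101, 115, 80.1 and 102 CPM at 24 h and rose by 2.44 ± 0.19. The groups were fully separated in all 3 genes. HMOX1, the inducible haem oxygenase, was at 1.76, 2.97, 1.26 and 1.53 CPM in solvent and 22.7, 25.02, 12.02 and 20.4 CPM at 24 h and rose by 3.42 ± 0.37. The inhibitors of differentiation moved apart, since ID3 rose by 0.89 ± 0.13, whereas ID1 (-0.04) and ID2 (0.57) did not pass the test. CDKN1A, the cell cycle inhibitor p21, rose by 0.38 ± 0.08, from 455, 454, 427 and 448 CPM to 547, 585, 619 and 572 CPM.

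Promoters are shown for the 3 direct targets that rose most and had a sequence in the RefSeq table (assembly GRCh38.p14), and for IL11, MFAP2 and POSTN of the 12 genes that rose most. The last 3 were chosen after the motif search because they hold the AP-1 motif TGANTCA. Each sequence runs from 250 bases before to 50 bases after the annotated start. Capitals mark TGANTCA (N is any base, both strands) and the SMAD motif CAGACA (both strands), which do not overlap here.
TGFBI (chr5:136028738-136029037, plus strand): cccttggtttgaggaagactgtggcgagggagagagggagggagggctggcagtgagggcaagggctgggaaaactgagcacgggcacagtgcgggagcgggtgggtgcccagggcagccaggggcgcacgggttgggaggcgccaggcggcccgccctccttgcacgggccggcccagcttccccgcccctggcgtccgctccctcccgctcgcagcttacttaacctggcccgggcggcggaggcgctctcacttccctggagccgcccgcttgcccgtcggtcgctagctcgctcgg
ITGB6 (chr2:160200223-160200522, minus strand): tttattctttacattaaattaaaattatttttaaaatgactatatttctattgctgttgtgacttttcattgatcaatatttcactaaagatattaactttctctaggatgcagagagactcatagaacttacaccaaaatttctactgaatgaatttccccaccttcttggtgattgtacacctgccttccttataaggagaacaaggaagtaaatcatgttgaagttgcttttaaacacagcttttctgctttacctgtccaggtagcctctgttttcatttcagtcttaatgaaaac
SPHK1 (chr17:76382954-76383253, plus strand): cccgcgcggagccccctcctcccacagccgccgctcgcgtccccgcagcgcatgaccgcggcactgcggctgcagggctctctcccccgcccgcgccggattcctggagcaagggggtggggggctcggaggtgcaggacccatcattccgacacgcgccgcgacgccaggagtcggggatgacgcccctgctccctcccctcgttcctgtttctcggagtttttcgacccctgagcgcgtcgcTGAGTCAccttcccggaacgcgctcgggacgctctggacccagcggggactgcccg
IL11 (chr19:55370414-55370713, minus strand): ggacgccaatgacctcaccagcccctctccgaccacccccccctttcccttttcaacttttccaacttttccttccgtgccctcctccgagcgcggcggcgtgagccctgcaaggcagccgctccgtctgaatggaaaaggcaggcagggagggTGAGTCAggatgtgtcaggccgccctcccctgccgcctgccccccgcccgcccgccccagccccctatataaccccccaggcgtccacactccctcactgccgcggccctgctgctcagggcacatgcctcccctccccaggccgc
MFAP2 (chr1:16981534-16981833, minus strand): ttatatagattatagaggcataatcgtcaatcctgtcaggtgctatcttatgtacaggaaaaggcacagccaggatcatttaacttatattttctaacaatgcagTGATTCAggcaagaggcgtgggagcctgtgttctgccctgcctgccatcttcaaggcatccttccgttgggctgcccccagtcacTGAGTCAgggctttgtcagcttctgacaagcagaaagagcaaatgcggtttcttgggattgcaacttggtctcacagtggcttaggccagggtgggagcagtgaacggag
POSTN (chr13:37598719-37599018, minus strand): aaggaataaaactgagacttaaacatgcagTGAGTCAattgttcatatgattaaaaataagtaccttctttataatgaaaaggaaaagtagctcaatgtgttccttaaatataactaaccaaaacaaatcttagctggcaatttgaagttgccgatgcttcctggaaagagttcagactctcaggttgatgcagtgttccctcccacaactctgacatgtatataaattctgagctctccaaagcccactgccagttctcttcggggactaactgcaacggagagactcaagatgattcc
Neither motif was found in these windows of TGFBI and ITGB6. SPHK1 holds TGANTCA with its first base 6 bases before the start, IL11 96 bases before it, POSTN 220 bases before it, and MFAP2 both 145 and 60 bases before it. TGANTCA occurred in 7.71% of 35116 RefSeq promoter windows of the same length, in 3 of the 8 matched genes among the 12 that rose most (37.5%) and in 1 of 10 matched direct targets that rose. CAGACA occurred in 16.9% of all windows, in 0 of those 8 genes and in 2 of those 10 targets. A match is a description of the letters and shows no binding.

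Transcription factors of EMT rose in part. Of 14 tested, 10 rose and 1 fell (median 0.53). SNAI1 (SNAIL1), a repressor of epithelial genes, was at 0.225, 0.227, 0.210 and 0.778 CPM in solvent and 5.12, 6.11, 7.08 and 7.20 CPM at 24 h and rose by 4.37 ± 0.47. SNAI2 (SLUG), its relative, was at 96.96, 96.2, 88.3 and 126 CPM in solvent and 329.8, 361, 286 and 335 CPM at 24 h and rose by 1.70 ± 0.15. SOX4, an inducer of EMT genes, was at 52.6, 41.7, 49.4 and 50.4 CPM in solvent and 196, 183, 210.0 and 163 CPM at 24 h and rose by 1.95 ± 0.13. All 3 were separated between groups, although SNAI1 started near 0. ZEB2 rose by 0.76 ± 0.26 at a low level, from 3.82 to 6.63 CPM on average, and was not called without the 24 h library 2-2 (adjusted p = 0.0656) or the solvent library 27-1 (adjusted p = 0.0707). ZEB1 was at 7.79, 8.16, 7.93 and 15.5 CPM in solvent and 11.8, 13.5, 9.20 and 17.6 CPM at 24 h, where the groups overlap, and its change of 0.43 ± 0.22 was not called (adjusted p = 0.111). ZEB1 was called with the series as a replicate block (adjusted p = 0.00448) and with TMM factors (adjusted p = 0.0319). TWIST1 changed by -0.40 and was called only with library-size scaling.

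Of 18 AP-1 family members, 5 rose and 2 fell (median 0.13). JUN was at 42.4, 32.4, 45.5 and 45.6 CPM in solvent and 171, 163, 183 and 160.3 CPM at 24 h and rose by 2.04 ± 0.17. JUNB, whose libraries are given above, rose by 1.48 ± 0.33. MAF, a large leucine zipper factor, rose by 2.67 ± 0.42 from 0.610 to 3.91 CPM. The groups did not overlap for JUN. FOS fell by 0.82 ± 0.17 (SE). FOSL1 (-0.27) and JUND (0.12) did not pass the test, though FOSL1 did with the series block (adjusted p = 0.00337) or without the 24 h library 27-2 (adjusted p = 0.0173) and JUND with TMM factors (adjusted p = 0.00498).

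Matrix genes rose broadly. Of 16 tested mesenchymal markers, 13 rose and 1 fell (median 1.47). FN1, the matrix glycoprotein fibronectin, was at 580.1, 329, 508 and 1548 CPM in solvent and 6301, 7038, 3715 and 8688 CPM at 24 h and rose by 3.31 ± 0.47 (adjusted p = 9.42e-07). TNC, the matricellular tenascin C, was at 23.6, 19.2, 35.7 and 22.8 CPM in solvent and 196, 188, 327 and 166 CPM at 24 h and rose by 3.09 ± 0.28. CDH2, N-cadherin, was at 35.7, 40.2, 36.8 and 63.6 CPM in solvent and 102, 114, 96.03 and 134 CPM at 24 h and rose by 1.38 ± 0.16. None of these overlapped between groups, and the solvent library 27-2 was the highest for FN1. FAP, a serine protease of activated fibroblasts, rose by 2.52 ± 0.22, and VIM, the intermediate filament protein vimentin, by 0.62 ± 0.12. S100A4 (-0.56), a calcium-binding protein of motile cells, was called lower by library size but not with TMM factors (adjusted p = 0.125), nor without 1 of the solvent libraries 2-1 or 2-2 or the 24 h libraries 27-1 or 27-2 (adjusted p 0.0571 to 0.118).

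Of 24 tested collagens and crosslinking enzymes, 14 rose and 1 fell (median 0.72). COL4A1, a collagen of basement membranes, was at 94.2, 77.9, 102 and 158 CPM in solvent and 634, 642, 512 and 778 CPM at 24 h and rose by 2.61 ± 0.23. COL6A3, of microfibrillar collagen VI, was at 38.8, 18.99, 31.9 and 119.8 CPM in solvent and 316, 388, 99.3 and 522 CPM at 24 h and rose by 2.79 ± 0.54. COL1A1, of fibrillar collagen I, was at 8.96, 8.41, 10.3 and 5.59 CPM in solvent and 65.9, 52.8, 73.4 and 53.4 CPM at 24 h and rose by 2.89 ± 0.25. The groups were separated for COL4A1 and COL1A1, whereas the solvent library 27-2 overlapped the treated libraries for COL6A3. COL1A2, the partner chain of COL1A1, held at most 12 counts and COL3A1 at most 2 counts in any of the 8 libraries, and neither was tested. COL5A1 held 0 counts in all solvent libraries and 36, 44, 1 and 2 counts at 24 h, so reads of it came almost wholly from clone 2, and it was not called (adjusted p = 0.0622). It was called with the series block (adjusted p = 7.11e-04) and without the 24 h library 27-1 (0.0171) or 27-2 (0.0476). Among the 5 tested fibroblast markers, 4 rose and 0 fell, and their summed level went from 55.1, 65.4, 49.4 and 65.98 CPM to 250.3, 239, 224 and 274 CPM. Of the same list, DPT and THY1 held at most 4 counts in any library and were not tested. PDGFRA held 8 to 10 counts in solvent and 44 to 71 at 24 h. DCN held 207 to 510 and then 593 to 1020 counts, and PDPN 1626 to 1990 and then 6713 to 9692. PDGFRB held 10 to 22 counts in solvent and 6 to 18 at 24 h and was not called. The part of other cells in the matrix result was not tested.

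Of 29 matrix glycoproteins and proteoglycans, 16 rose and 4 fell (median 0.74). FBLN5, an elastic fibre protein, was at 4.75, 5.67, 4.57 and 8.33 CPM in solvent and 32.1, 31.5, 26.2 and 104 CPM at 24 h and rose by 2.86 ± 0.73. SPOCK1, a proteoglycan, was at 23.7, 23.9, 22.2 and 34.3 CPM in solvent and 109.9, 105, 87.02 and 111 CPM at 24 h and rose by 2.01 ± 0.16. Neither overlapped. The hyaluronan synthases differed in direction, since HAS2 rose by 2.39 ± 0.75 from 0.277 to 1.60 CPM and HAS3 fell by 1.54 ± 0.20 (SE) from 15.7 to 5.49 CPM. HSPG2 (-0.54), GPC1 (-0.45) and SDC1 (-0.36), heparan sulphate proteoglycans, also fell, SDC1 only with library-size scaling.

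Receptors and ligands of cell adhesion to matrix rose. Of 21 tested laminins and integrins, 15 rose and 0 fell (median 0.64). LAMA3 and LAMB3 encode chains of laminin 332, which anchors basal epithelial cells. LAMA3 was at 1369, 989, 1313 and 1898 CPM in solvent and 5804, 6290.2, 5006 and 6121 CPM at 24 h and rose by 2.09 ± 0.18. LAMB3 was at 1660.3, 1271, 1569.7 and 2261 CPM in solvent and 4963, 5434, 4638 and 5771 CPM at 24 h and rose by 1.65 ± 0.21. ITGA5, the fibronectin receptor subunit, was at 209, 193, 188 and 234 CPM in solvent and 620.3, 697, 593 and 652 CPM at 24 h and rose by 1.64 ± 0.12. ITGAV, the partner of ITGB6, rose by 1.47 ± 0.12, and ITGB3, another partner of ITGAV, by 5.74 ± 0.95 from 0.105 to 4.39 CPM. LAMA3, LAMB3 and ITGA5 showed no overlap.

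Of 19 proteases and inhibitors, 15 rose and 0 fell, with a median of 2.58 or, with MMP3 at its bound, 2.34. PLAU, the urokinase plasminogen activator, was at 139, 81.7, 156 and 252 CPM in solvent and 1008, 1099, 1072 and 1414 CPM at 24 h and rose by 2.97 ± 0.25. ADAM19, a membrane metalloprotease, was at 40.97, 18.6, 42.7 and 95.2 CPM in solvent and 492, 539, 361 and 638 CPM at 24 h and rose by 3.57 ± 0.41. MMP2, a gelatinase, was at 3.11, 2.42, 4.17 and 7.53 CPM in solvent and 40.2, 40.3, 31.1 and 72.7 CPM at 24 h and rose by 3.48 ± 0.38. None overlapped between the groups. SERPINE2, an inhibitor of thrombin and urokinase, rose by 2.75 ± 0.25, and the metalloprotease inhibitors TIMP1 (0.91) and TIMP2 (0.89) rose less. MMP3 held 0 counts in the solvent libraries and was at least 5.05-fold higher at 24 h, counted against the floor of 3 counts in a library (0.0756 CPM), where it averaged 0.382 CPM.

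Of 25 actin and contractile genes, 19 rose and 0 fell (median 0.44). TAGLN, an actin-binding protein of smooth muscle, was at 66.9, 40.4, 122 and 134 CPM in solvent and 241, 244, 471 and 408 CPM at 24 h and rose by 1.99 ± 0.32. MYL9, a myosin light chain, was at 22.995, 13.5, 32.3 and 36.6 CPM in solvent and 53.1, 60.8, 99.7 and 87.2 CPM at 24 h and rose by 1.56 ± 0.27. ACTB, cytoplasmic actin, was at 5694, 4153, 6687 and 7157 CPM in solvent and 9062, 8457, 9542 and 9793 CPM at 24 h and rose by 0.67 ± 0.13. The groups did not overlap in these genes. ACTA2, smooth muscle actin, was at 19.01, 23.1, 17.7 and 18.01 CPM in solvent and 18.4, 18.9, 18.3 and 18.7 CPM at 24 h, where the groups overlap, and did not pass the test (-0.05).

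Junction genes moved in both directions. Of 21 genes of adherens and tight junctions, 6 rose and 5 fell (median -0.06). CDH1, E-cadherin, was at 387, 335, 453 and 224 CPM in solvent and 407, 338, 599 and 205 CPM at 24 h. The groups overlap, and the change of 0.09 ± 0.25 was not called (adjusted p = 0.790). EPCAM, an epithelial adhesion molecule, was at 51.6, 46.9, 54.2 and 33.5 CPM in solvent and 16.04, 11.2, 22.5 and 13.9 CPM at 24 h and fell by 1.56 ± 0.23 (SE). TJP3, a tight junction scaffold, fell by 2.20 ± 0.51 (SE) from 7.98 to 1.80 CPM. CDH3 (0.51), P-cadherin, JUP (0.54), plakoglobin, and CTNNB1 (0.32), β-catenin, rose. Of 12 desmosome genes, 2 rose and 3 fell (median -0.20), and periplakin (PPL) was at 176, 155, 198 and 76.9 CPM in solvent and 43.04, 29.1, 79.1 and 14.5 CPM at 24 h. It fell by 2.03 ± 0.36 (SE), although its solvent library 27-2 overlapped the treated libraries. With the series block, 8 junction genes rose and 9 fell, and 5 desmosome genes rose and 5 fell, as many as fell without the 24 h library 27-1.

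Keratins differed between members. Of 14 tested, 6 rose and 4 fell (median 0.18). KRT14, a basal keratin, was at 468, 429, 376 and 181 CPM in solvent and 1217, 991, 1423 and 652 CPM at 24 h and rose by 1.59 ± 0.32, while its partner KRT5 was at 6662, 6697, 6452 and 5234 CPM in solvent and 3970.2, 3431, 4284 and 3262 CPM at 24 h and fell by 0.75 ± 0.10 (SE). The stress keratin KRT6A rose by 0.82. KRT14 and the KRT6 genes have near-identical relatives, and reads could be split among them. KRT18 (-0.41), a simple epithelial keratin, was called lower only with library-size scaling.

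Of 19 epithelial regulators, 2 rose and 9 fell (median -0.31). EHF, an epithelial ETS factor, was at 50.02, 39.4, 59.02 and 8.15 CPM in solvent and 6.30, 1.97, 11.4 and 1.79 CPM at 24 h and fell by 2.93 ± 0.71 (SE). GRHL3, a grainyhead factor, was at 76.2, 67.7, 81.5 and 43.2 CPM in solvent and 31.8, 24.8, 40.3 and 11.8 CPM at 24 h and fell by 1.39 ± 0.31 (SE). ESRP2, a splicing regulator of epithelial isoforms, was at 86.1, 81.03, 78.2 and 67.6 CPM in solvent and 46.7, 37.8, 40.9 and 35.6 CPM at 24 h and fell by 0.96 ± 0.08 (SE). The groups did not overlap for GRHL3 and ESRP2, whereas EHF overlapped, with the series 27-2 lowest in both groups. Without the 24 h library 27-2, 4 genes of the list fell, and 5 by the edgeR test. ESRP1 (-0.31) did not pass the test, but did with the series block (adjusted p = 0.00294) and without the solvent library 27-2 (0.0259) or the 24 h library 27-1 (0.0451). TP63 (-0.12), the master regulator of basal epithelia, did not pass either, and KLF4 (0.70) rose.

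Of 25 tested genes of squamous differentiation, 2 rose and 11 fell, beside 38% of all genes that fell, and 12 were not called. The list's median was -1.19. S100A9, a subunit of calprotectin, was at 399, 308, 374 and 74.3 CPM in solvent and 63.9, 44.1, 137 and 24.7 CPM at 24 h and fell by 2.11 ± 0.50 (SE). Its partner S100A8 was at 147, 101, 143 and 25.5 CPM in solvent and 22.1, 12.9, 46.6 and 6.24 CPM at 24 h and fell by 2.31 ± 0.60 (SE). TGM1, the transglutaminase of the cornified envelope, was at 162, 97.7, 149 and 37.9 CPM in solvent and 22.02, 15.1, 38.96 and 14.6 CPM at 24 h and fell by 2.20 ± 0.37 (SE). In these 3 genes the series 27-2 was the lowest in both groups and its solvent library overlapped the treated ones. IVL, the envelope protein involucrin, was at 9.84, 2.47, 14.2 and 4.97 CPM in solvent and 27.02, 12.5, 85.7 and 19.4 CPM at 24 h and rose by 2.08 ± 0.64, with groups that overlap. The kallikreins KLK5, KLK7, KLK8 and KLK10 had changes of -0.91, -1.09, -1.31 and -1.44 and were not called. With the series block each was called (adjusted p 0.00199, 0.00113, 0.00104 and 2.04e-04), and 18 genes of the list fell. KLK8 was also called without the solvent library 27-2 (adjusted p = 0.0457), and KLK7 ranged from -2.34 to 0.11 with 1 library left out.

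Proliferation genes fell almost without exception. All 39 tested genes of DNA replication and S phase fell, as did 39 of 40 mitosis genes, and TMM factors gave the same counts. The medians were -1.19 and -0.98 by library size, and -1.01 and -0.80 with TMM factors. The S phase genes summed to 2698, 2723, 3044 and 3028 CPM in solvent and 1449, 1072, 1199 and 1449 CPM at 24 h. Each treated library thus lay below each solvent library, and 39 of the 39 genes were separated one by one. MCM2, a subunit of the replicative helicase, was at 115, 125, 135 and 129 CPM in solvent and 51.7, 37.7, 43.4 and 54.1 CPM at 24 h and fell by 1.44 ± 0.15 (SE). PCNA, the sliding clamp, was at 76.3, 83.4, 78.4 and 91.4 CPM in solvent and 36.02, 32.8, 35.95 and 45.1 CPM at 24 h and fell by 1.14 ± 0.14 (SE). RRM2, the small subunit of ribonucleotide reductase, was at 135, 140.2, 161 and 176 CPM in solvent and 68.3, 45.6, 52.7 and 69.9 CPM at 24 h and fell by 1.39 ± 0.17 (SE). The changes of the list ran from -1.75 (POLE2) to -0.661 (SLBP).

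The mitosis genes summed to 4388, 4435, 5204 and 5480.2 CPM in solvent and 2833, 1971, 2521 and 2977 CPM at 24 h, again without overlap. CDC25B, a phosphatase that starts mitosis, fell by 1.53 ± 0.13 (SE), MKI67, the proliferation marker Ki-67, was at 222, 225, 255 and 253 CPM in solvent and 134, 78.5, 112 and 149 CPM at 24 h and fell by 1.05 ± 0.19 (SE). BUB3, a checkpoint protein, was the member not called (-0.18), though it was with the series block (adjusted p = 0.00259) and without the 24 h library 27-2 or the solvent library 2-1 or 2-2 (0.0143 to 0.0344). Of 21 regulators of the G1 phase, 3 rose and 14 fell (median -0.45). MYC was at 633, 710.1, 609.5 and 544 CPM in solvent and 308, 299, 282 and 271 CPM at 24 h and fell by 1.10 ± 0.08 (SE), CDK4 was at 151, 148, 128 and 135 CPM in solvent and 76.4, 72.7, 61.6 and 69.001 CPM at 24 h and fell by 1.01 ± 0.06 (SE), and E2F2, a factor of S phase genes, was at 9.41, 10.8, 11.98 and 7.80 CPM in solvent and 2.04, 1.01, 2.18 and 1.81 CPM at 24 h and fell by 2.52 ± 0.32 (SE). In these 3 genes the groups did not overlap. CCND1, cyclin D1, did not pass the test (-0.08), and CDKN1A and CDKN2D, cell cycle inhibitors, rose by 0.38 and 0.59.

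Genes for making ribosomes fell as well. All 28 tested ribosome biogenesis genes fell (median -0.71), and 27 did so with TMM factors. NCL, the nucleolar protein nucleolin, was at 1428, 1365, 1426 and 1476 CPM in solvent and 769, 720.4, 692 and 716 CPM at 24 h and fell by 0.98 ± 0.07 (SE). POLR1B, a subunit of RNA polymerase I, was at 151, 174, 156 and 152 CPM in solvent and 86.7, 81.4, 75.1 and 66.6 CPM at 24 h and fell by 1.04 ± 0.07 (SE). Both were separated between groups. The cytosolic ribosomal proteins lay at the average gene: their median of -0.16 was near that of all genes, and 17 of 40 were lower by library size but 1 with TMM factors, which also called 1 higher. Without the 24 h library 2-1 10 were lower, and without the solvent library 2-2 11. Of 40 respiratory chain subunits, 35 fell (median -0.38), and 22 fell with TMM factors. ATP5F1B, of the ATP synthase, fell by 0.64 ± 0.05 (SE) from 1249 to 802 CPM.

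Metabolic lists depended more on the scaling. Of 30 genes of glycolysis and hypoxia, 3 rose and 15 fell (median -0.28), against 7 and 10 with TMM factors. CA9, a carbonic anhydrase induced by hypoxia, was at 14.3, 1.13, 3.57 and 1.15 CPM in solvent and 0.0948, 0, 0.110 and 0.255 CPM at 24 h and fell by 5.18 ± 1.74 (SE). HK2, a hexokinase, was at 59.7, 59.2, 48.95 and 48.4 CPM in solvent and 23.5, 19.5, 17.5 and 18.2 CPM at 24 h and fell by 1.47 ± 0.13 (SE). Both fell under either scaling, without overlap. PFKFB4 (0.87), which makes an activator of glycolysis, and VEGFA (0.85), the vascular growth factor, rose. Of 25 sterol and fatty acid genes, 1 rose and 7 fell by library size, and 11 rose and 3 fell with TMM factors, so the direction of this list turned with the scaling. FASN, the fatty acid synthase, was at 1579, 1688, 1311 and 1091 CPM in solvent and 1015, 899.8, 786 and 850.1 CPM at 24 h and fell by 0.66 ± 0.14 (SE) by library size, and its change was -0.48 with TMM factors (adjusted p = 0.00604). Of 24 NRF2 and antioxidant genes, 3 rose and 11 fell, and 6 rose and 3 fell with TMM factors. AKR1C2, an aldo-keto reductase, was at 45.2, 76.5, 33.9 and 58.9 CPM in solvent and 153, 235, 112 and 123 CPM at 24 h and rose by 1.55 ± 0.23, though near-identical relatives may share its reads. GCLC, of glutathione synthesis, fell by 0.80 ± 0.10 (SE). Of 22 ATF4 stress genes, 1 rose and 3 fell (5 and 3 with TMM factors, 9 and 5 with the series block), and DDIT4, an inhibitor of mTOR, fell by 1.11 ± 0.13 (SE).

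Genes of growth factor signalling moved in both directions. Of 24 ligands of the epidermal growth factor receptor and feedback genes of ERK signalling, 3 rose and 11 fell (5 and 7 with TMM factors). EPGN, the ligand epigen, was at 407, 356, 419.9 and 262 CPM in solvent and 143, 123, 173 and 83.6 CPM at 24 h and fell by 1.49 ± 0.17 (SE). EREG, epiregulin, was at 95.4, 113, 61.6 and 104 CPM in solvent and 51.1, 52.4, 22.3 and 39.96 CPM at 24 h and fell by 1.23 ± 0.29 (SE). SPRY1, a feedback inhibitor, was at 8.24, 10.6, 9.48 and 5.74 CPM in solvent and 1.75, 1.20, 1.79 and 1.11 CPM at 24 h and fell by 2.52 ± 0.28 (SE). The 3 genes were separated between groups, while EGFR, the receptor itself, did not pass the test (0.12).

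Of 27 further growth factor and WNT genes, 13 rose and 4 fell (median 0.60). WNT9A was at 13.2, 5.26, 12.1 and 13.2 CPM in solvent and 69.2, 79.3, 70.1 and 62.8 CPM at 24 h and rose by 2.75 ± 0.22. WNT7A was at 6.06, 5.24, 3.94 and 9.98 CPM in solvent and 22.9, 22.6, 19.999 and 32.7 CPM at 24 h and rose by 2.04 ± 0.29. WNT5A and WNT7B, also WNT ligands, rose by 1.31 ± 0.19 and 1.20 ± 0.24, and WNT10A fell by 2.51 ± 0.82 (SE) from 1.44 to 0.463 CPM. Without the 24 h library 27-2, which held 0 counts of it, WNT10A was not called (adjusted p = 0.116). WNT5B changed by 3.05 ± 1.56 and was called only with the series block (adjusted p 0.103 without and 1.42e-07 with it). Of 21 NOTCH and YAP genes, 7 rose and 6 fell. JAG1, a NOTCH ligand, was at 108, 115, 97.8 and 110.0 CPM in solvent and 233, 269, 258 and 234 CPM at 24 h and rose by 1.21 ± 0.21, whereas the ligand JAG2 fell by 1.00 ± 0.11 (SE) and the receptor NOTCH1 by 0.85 ± 0.10 (SE). CCN2, a target of both YAP and SMADs, was at 29.7, 20.02, 46.4 and 77.8 CPM in solvent and 115, 116, 140.0 and 163 CPM at 24 h and rose by 1.79 ± 0.26.

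Among 25 cytokines and chemokines, 9 rose and 5 fell (median 0.36). IL32 was at 5.79, 2.77, 8.28 and 7.53 CPM in solvent and 17.8, 14.4, 35.8 and 32.3 CPM at 24 h and rose by 2.06 ± 0.44. CXCL8, which attracts neutrophils, was at 11.1, 9.80, 21.2 and 15.4 CPM in solvent and 24.1, 24.03, 34.2 and 30.8 CPM at 24 h and rose by 1.02 ± 0.24. IL1RN, the antagonist of the IL1 receptor, was at 21.7, 10.5, 19.8 and 5.54 CPM in solvent and 4.29, 3.08, 4.41 and 1.13 CPM at 24 h and fell by 2.17 ± 0.48 (SE). IL1B rose by 1.09 ± 0.23 and LIF fell by 1.39 ± 0.28 (SE). Of 27 interferon-stimulated genes, 3 rose and 10 fell (6 and 10 with TMM factors, 8 and 11 with the series block). OAS1, a sensor of double-stranded RNA, was at 18.8, 22.04, 17.7 and 7.75 CPM in solvent and 6.49, 6.04, 6.90 and 3.58 CPM at 24 h and fell by 1.48 ± 0.31 (SE), whereas IRF9, a subunit of the interferon-activated factor, rose by 0.85 ± 0.15.

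The 24 h libraries were then compared directly with the other times, with the 24 h libraries shared by each comparison named here. Between 6 and 24 h, 4188 genes changed (28.2%; 7.16% higher and 21% lower at 24 h). Of the 39 S phase genes 38 were lower at 24 h than at 6 h, as were 39 of 40 mitosis genes and 26 of 28 ribosome biogenesis genes. Higher at 24 h were 12 of 19 proteases and inhibitors, 12 of 21 laminins and integrins and 10 of 18 direct targets. Mean MCM2 levels were 126 ± 8.40 CPM in solvent (SD, n = 4), 90.4 ± 20.6 CPM at 6 h, 46.7 ± 7.59 CPM at 24 h and 83.5 ± 13.1 CPM at 72 h. TGFBI had means of 1204 ± 309, 4173 ± 280.3, 11317 ± 699 and 13972 ± 1516 CPM at the same times.

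Between 24 and 72 h, 1164 genes changed (7.83%; 4.68% higher and 3.15% lower at 72 h). Of the S phase genes 37 of 39 were higher at 72 h than at 24 h (median 0.72), as were 37 of 40 mitosis genes (median 0.60) and 8 of 28 ribosome biogenesis genes. These counts rested in part on 2 of the 24 h libraries. Without library 2-2, 29 S phase, 15 mitosis and 6 ribosome biogenesis genes were higher at 72 h, and without library 27-1 26, 26 and 3 were. Of the 7752 genes called at 24 h, 888 differed between 24 and 72 h, 407 without library 2-2, 397 without library 27-1 and 1810 with the series block. RRM2 differed by 1.23 ± 0.17 (SE, adjusted p = 2.27e-04), with a mean at 72 h of 139.9 ± 32.1 CPM beside 153 ± 18.8 CPM in solvent. FAM111B, a protease of replicating cells, differed by 1.27. Among genes that had risen, RDH16, a retinol dehydrogenase (-1.48), TAS1R3, a taste receptor (-1.32), and SPTBN5, a spectrin (-1.32), were lower at 72 h; the last overlaps another gene, as does TAS1R3. Genes that differed further in the direction taken at 24 h were POSTN (2.33), IGFBP2, a carrier of insulin-like growth factors (-1.51), CCNA1, a cyclin (-1.48), GRHL3 (-1.26) and ENTPD2 (-1.20). Of the 18 direct targets, 2 were called between 24 and 72 h, HMOX1 (-0.73) and PTHLH (0.52), a hormone-like secreted protein. RRM2, FAM111B, TAS1R3, SPTBN5 and CCNA1 were called without any 1 of the 4 libraries at 24 h. Without library 27-1, RDH16, POSTN, IGFBP2, GRHL3, ENTPD2 and PTHLH were not called (adjusted p 0.0590 to 0.198), without library 2-2 POSTN, GRHL3, ENTPD2, HMOX1 and PTHLH were not (0.0532 to 0.111), and without library 2-1 GRHL3, ENTPD2 and HMOX1 were not (0.0672 to 0.103).

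**Figure D3:**
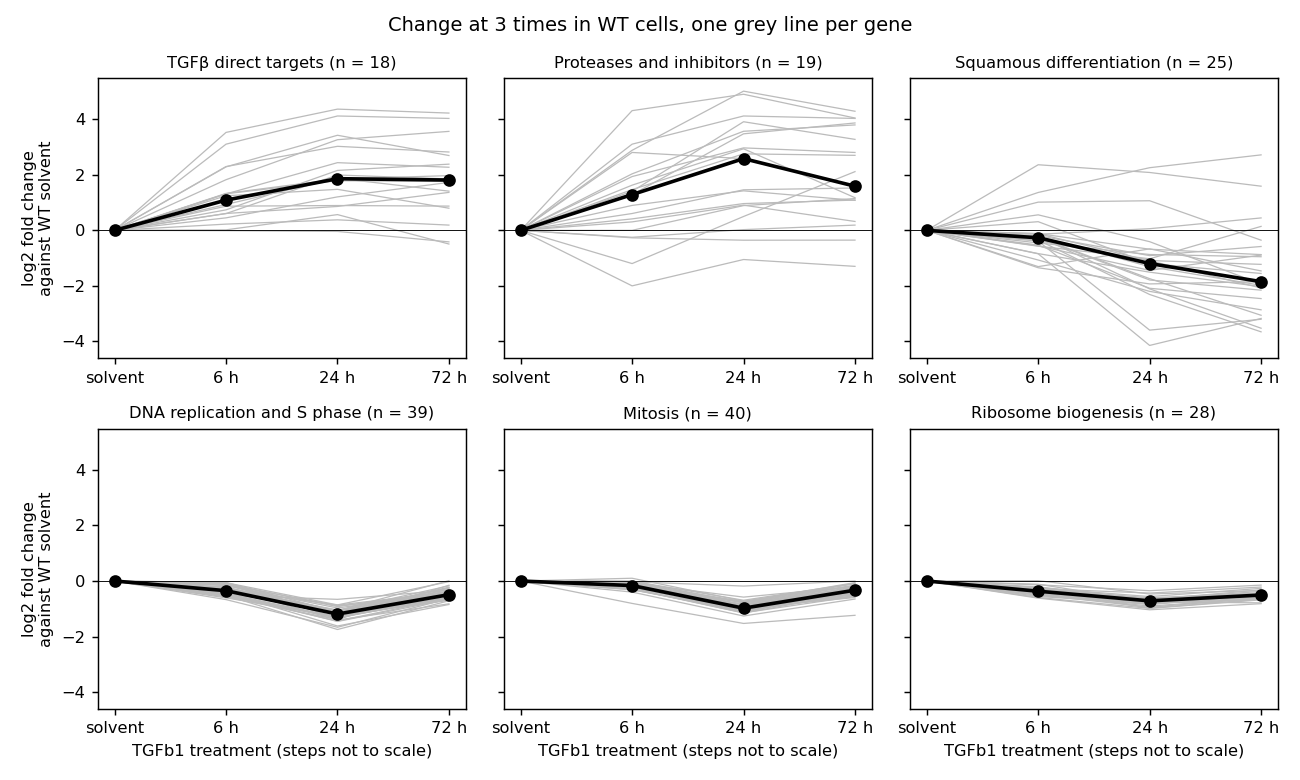
Log2 fold change against WT solvent (y axis) at 6, 24 and 72 h of TGFβ1 (x axis, not to scale) for the tested members of 6 gene lists. Grey lines are genes and black points are list medians; the S phase and mitosis medians are lowest at 24 h, at -1.19 and -0.98.

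The 2 WT clones were compared next. Across 9915 genes of at least 10 CPM, the changes in clone 27 and clone 2 had a Pearson r of 0.935, a description over genes that share 8 libraries. The difference of the 2 changes was called for 0 of 14865 genes by limma-voom, with a lowest adjusted p of 0.948. At an unadjusted p under 0.05 there were 735 genes (4.945%). The quasi-likelihood test of edgeR called 0, with 775 at an unadjusted p under 0.05. With the series block 0 genes were called, but 1653 had an unadjusted p under 0.05, more than in either fit without it. Each clone and treatment had 2 libraries, so the lack of calls does not show that the clones respond alike. LBH changed by 5.89 in clone 27 and 9.06 in clone 2. Its solvent libraries held 34 and 22 counts in clone 27 and 8 and 0 in clone 2, so the size of the latter change is uncertain. TGM2 changed by 4.22 in clone 27 and 5.02 in clone 2, MFAP2 by 4.73 and 3.89, and KRT15 by -3.34 and -4.43. MCM2 changed by -1.45 and -1.44.

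**Figure D4:**
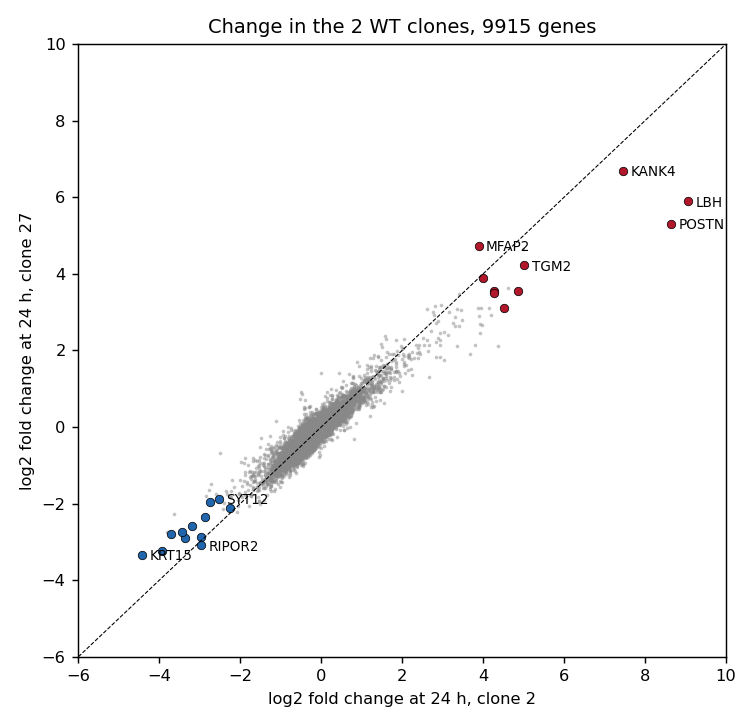
Log2 fold change of 24 h TGFβ1 against solvent in clone 27 (y axis) and clone 2 (x axis), 9915 genes as grey points. Red points mark 10 of the 12 highest changes and blue points the 12 lowest among called genes without overlap between groups. The dashed line marks equal changes, and LBH and POSTN lie below it.

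The 24 h change was also compared with that of the mut clones 1 and 65, which carry an extended deletion in JUNB that left a shorter polypeptide. The mut change minus the WT change was called for 1434 genes (9.65%), 7.72% higher and 1.93% lower. With TMM factors it was called for 860 genes (2.98% higher and 2.81% lower), and with the series block for 2782. Of the 7752 genes called in WT, 1408 were among them, 809 with TMM factors and 2549 with the block. The WT libraries enter both this difference and the 24 h change, so each value stands beside the change of each genotype. The difference was called higher in 35 of 39 S phase genes, 21 of 28 ribosome biogenesis genes and 7 of 40 mitosis genes. With the block 33 mitosis genes were called, and with TMM factors 3. In the S phase genes the median difference was 0.78, and with TMM factors 22 of 39 were called. MCM10, a replication initiation factor, changed by -1.67 in WT and -0.53 in mut cells, a difference of 1.13 ± 0.31 (SE, adjusted p = 0.0218). The cyclin gene CCNE2 changed by -1.29 in WT and -0.21 in mut cells (difference 1.08).

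Differences were called lower in 5 of 25 tested cytokines and chemokines, 4 of 19 proteases and inhibitors and 4 of 21 laminins and integrins. These counts cover all tested members, whether or not they rose in WT. Of all tested genes, 1.93% were called lower. The genes named here were chosen after their values were seen. TGM2 changed by 4.62 in WT and 1.96 in mut cells, a difference of -2.66 ± 0.34 (SE, adjusted p = 2.80e-05). NEDD9 changed by 3.88 and 0.89, and its mean in mut solvent was 27.95 CPM beside 3.03 CPM in WT solvent. SPOCK1 changed by 2.01 and -0.19 (difference -2.20, adjusted p = 1.12e-06). TGFBI changed by 3.26 and 1.46, HMOX1 by 3.42 and 0.99, and MMP2 by 3.48 and 1.44. CXCL8 rose in WT (1.02) and changed by -1.05 in mut cells (difference -2.07, adjusted p = 7.03e-04), and CXCL1 changed by 0.83 and -1.14.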

How the data were processed

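Total RNA of the 32 libraries was sequenced as read pairs of 150 bases from unstranded TruSeq v2 libraries. The authors trimmed reads with Trimmomatic, aligned and counted them per gene with STAR on the Ensembl GRCh38 genome, and deposited raw counts of 17788 genes. The versions and the strand setting are not given in the sources used here. Every library column was used (0 unused). Symbols (17598) and positions (17763) were taken from GENCODE 44 by gene identifier.

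The design followed the study's methods. Counts were scaled by library size and fitted with voom (R 4.3.3, limma 3.58.1) with 1 mean per group over all 32 libraries, and the 4 WT 24 h libraries were contrasted with the 4 WT solvent libraries. The filterByExpr function of edgeR 4.0.16, at its minimum count of 10, left 14865 genes to test. Tests were two-sided, and Benjamini-Hochberg adjusted p-values under 0.05 over all tested genes were called. A count of 3 was taken as the floor, 0.0549 to 0.0756 CPM. This floor covers counting error only. No 2 libraries of a group agreed within sampling noise (chi-square per degree of freedom at least 16.9). Scripts were tested on simulated counts.

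The labels give each solvent and 24 h library a clone and a replication number. Deviations from the group means of same-numbered libraries correlated at 0.299, 0.407, 0.654 and 0.749 for the series 2-1, 2-2, 27-1 and 27-2. Solvent and 24 h libraries of different series correlated at -0.502 to 0.193, so the series paired the libraries, 2-1 the least. The main fit, which gave the calls, SEs and p-values, followed the study's design and left this pairing out. A fit with the series as a block on the 16 WT libraries is given beside results that it moved.

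Named were members of 32 gene lists, those with the largest called changes first, and the 12 highest and 12 lowest changes among called genes of at least 10 CPM with no overlap and the same sign in the 4 series. Further rules named up to 5 genes per direction among called clone differences (there were none), and the 5 largest moves back and 5 largest further moves between 24 and 72 h among such genes changed by at least 1. Promoters of the 3 direct targets that rose most and had a RefSeq entry were printed. IL11, MFAP2 and POSTN promoters and the genes that differed between genotypes were chosen after their values were seen. The members and lists were chosen with earlier results of these data known. Alternatives were TMM factors, the edgeR quasi-likelihood test, DESeq2 1.42.0, no filter, a mean count of at least 50, the 8 libraries alone, a minimum change of 1, blocks by series or by replication number, and leaving out each library. In a further alternative the solvent and 24 h libraries of series 27-2 were left out, and its 6 h and 72 h libraries stayed in the fit. A few genes that these rules would name are not reported here.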

Additional observations from a re-analysis of the deposited data

Results flagged for a closer look

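In 364 groups of 4 library values, 14 held 1 library that lay far from the other 3 (Dixon's test, 95% critical value). Most groups held log2 CPM of a gene with 0.1 added, and the rest held log2 library statistics such as total counts. Chance flags about 1 in 20 such groups, and 11 of the 14 libraries were of the series 27-2. In the 27-2 solvent library, SNAI1 was at 0.778 CPM (others 0.210 to 0.227), SMAD7 at 14.4 CPM (10.9 to 11.3), ZEB1 at 15.5 CPM (7.79 to 8.16) and SPOCK1 at 34.3 CPM (22.2 to 23.9), all above the other 3. The same library was below the others for ESRP1 at 118 CPM (197 to 209), KRT5 at 5234 CPM (6452 to 6697), S100A9 at 74.3 CPM (308 to 399) and SLC27A2 at 7.75 CPM (14.1 to 15.9). The 27-2 library at 24 h was above the others for FBLN5 at 104.2 CPM (26.2 to 32.1) and SERPINE2 at 424 CPM (336 to 344), and held 0 counts of WNT10A (0.521 to 0.674 CPM in the others). The solvent library 2-2 was low for MMP9 at 1.36 CPM (4.57 to 5.00) and WNT9A at 5.26 CPM (12.1 to 13.2), and high for KLF4 at 33.2 CPM (30.5 to 30.9).

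The 24 h change differed between genotypes by the limma-voom interaction for 10 genes named in the report, given as the mut change minus the WT change in log2. The difference was 1.13 for MCM10 and 1.08 for CCNE2, both of which fell in WT. It was -2.66 for TGM2, -2.999 for NEDD9, -2.20 for SPOCK1, -1.81 for TGFBI and -2.44 for HMOX1. It was -2.04 for MMP2, -2.07 for CXCL8 and -1.97 for CXCL1. These 8 genes rose in WT, and all 10 differences were also called with TMM factors and with the series block.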

How the results depend on the processing

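Of 179 genes named with a 24 h change, 157 were called, and 147 of these kept their call and sign in all 18 settings other than the minimum change of 1. The scaling moved the balance of directions most. The genes called numbered 6949 with TMM factors (3499 higher, 3450 lower), 7095 by DESeq2 (3592 and 3503), 6988 by the edgeR test (3504 and 3484) and 8902 with series numbers as the replicate block, which together with TMM factors called 3865 higher. Leaving out 1 library in turn called 7107 to 7684 genes. The cause was not tested.

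With the block, 18 squamous, 5 desmosome and 5 ATF4 genes fell (5 ATF4 genes also with the replication number as a block), and 1810 genes called at 24 h differed between 24 and 72 h. The genotype difference among them was called for 2549 genes with the block and 809 with TMM factors, beside 1408. The block moved no other count in a list's leading direction by over 1.5 times, and the 10 named genes whose calls it added are given in the report. With the block and TMM factors 10 junction genes rose. AP-1 genes that rose numbered 8 with TMM factors, 10 by DESeq2, 10 by the edgeR test and 11 with block and TMM factors. Fewer genes fell with TMM factors, DESeq2 and the edgeR test alike: 7 of the EGFR and ERK list, 3 NRF2, 3 sterol, 1 ribosomal protein and 22 respiratory chain genes. With block and TMM factors 7 NRF2, 4 sterol and 4 ribosomal protein genes fell. By the edgeR test 9 glycolysis genes and 5 epithelial regulators fell, and with the 8 libraries alone 4 epithelial regulators fell.

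With a minimum change of 1, 1445 genes were called (624 higher, 821 lower). Of the lists, 5 ligands, 5 feedback inhibitors, 3 EMT factors, 9 collagens, 8 laminins and integrins, 3 actin, 3 AP-1, 7 growth factor, 2 NOTCH and YAP, 1 junction and 1 keratin gene then rose. Then fell 1 receptor, 1 desmosome gene, 2 epithelial regulators, 6 G1 regulators, 14 mitosis genes, 3 EGFR and ERK, 4 interferon-stimulated, 2 NRF2, 2 glycolysis, 1 ATF4 and 1 ribosome biogenesis gene, and 0 sterol, 0 ribosomal protein and 0 respiratory chain genes.

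Leaving out 1 library in turn, 3 to 5 desmosome genes, 4 to 11 epithelial regulators and 10 to 23 ribosomal proteins fell, and 397 to 1030 genes differed between 24 and 72 h. The counts of S phase, mitosis and ribosome biogenesis genes under other settings, given in the report, were computed after seeing the data. Changes that were not called turned sign in 7 genes with TMM factors, DESeq2, the edgeR test and block with TMM factors, in this order. ID1 was at 0.139, 0.136, 0.133 and 0.111, ACTA2 at 0.123, 0.117, 0.113 and 0.0943, CCND1 at 0.0948, 0.101, 0.0978 and 0.0680, and SMAD4 at 0.0812, 0.0839, 0.0807 and 0.0546. TGFBR2 was at 0.0760, 0.0727, 0.0696 and 0.0503, SMAD2 at 0.0670, 0.0711, 0.0683 and 0.0412, and TP63 at 0.0588, 0.0840, 0.0817 and 0.0391. Over the libraries left out, CDH1 ranged from -0.15 to 0.36, ID1 from -0.15 to 0.0274, ACTA2 from -0.10 to 0.0265, TP63 from -0.25 to 0.0373 and KLK7 from -2.34 to 0.11. At these depths, genes of a few counts such as MMP3 are limited by counting error. COL5A1 was low as well, and its counts at 24 h also differed by clone, with 36 and 44 in clone 2 and 1 and 2 in clone 27.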

Other observations

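Markers of other cell types were tested where the count filter kept them. Of 9 tested markers of hormone-sensing luminal cells, 1 rose and 3 fell at 24 h. Of 3 tested endothelial markers, 0 rose and 1 fell, and of 4 tested blood markers, 1 rose and 2 fell. Of 13 basal markers, 10 rose and 1 fell, among them KRT14 and KRT5, which moved apart.

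Even counts were more frequent than odd ones in every library. Among genes with 1 to 20 counts in a library, 77.1 to 83.7% of the counts were even in the 8 libraries, in solvent and at 24 h alike. The libraries were sequenced as read pairs, and whether both reads of a pair were counted was not tested.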
